A study of Mus musculus with 8 samples.

Results

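The 9 genes described here make, break down, bind or read out retinoic acid: Aldh1a1, Aldh1a2, Aldh1a3, Dhrs3, Cyp26b1, Crabp1, Crabp2, Rara and Rarb. They were taken as every non-control probe whose RefSeq accession belongs to 1 of these genes. This gave 11 of the 55681 probes on the array and 9 of the 20660 genes that could be named. The set was chosen by measured values of these arrays, since Aldh1a1 and Aldh1a3 had been seen to move in opposite directions with the signal of Cbx3. Their values in KO against WT floating neurospheres are therefore a description: no p-value is given for them, and counts of calls are printed beside those of all features with nothing read from them.

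Retinoic acid is made from vitamin A in 2 oxidation steps. Retinol dehydrogenases form retinaldehyde, and the aldehyde dehydrogenases Aldh1a1, Aldh1a2 and Aldh1a3 turn it into retinoic acid. Crabp1 and Crabp2 bind the acid in the cytoplasm, enzymes of the Cyp26 family degrade it, and the nuclear receptors Rara and Rarb bind DNA with a retinoid X receptor and switch target genes on when the acid is bound. In the embryonic forebrain, retinoic acid is known for its part in the differentiation of neurons of the ganglionic eminence.

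The study compared neurospheres, floating clusters grown from neural stem cells, with and without HP1gamma, the chromatin protein encoded by Cbx3. There were 2 arrays of HP1gamma KO cells labelled adherent, 3 of HP1gamma KO cells labelled floating and 3 of wild-type cells labelled floating, called KO adherent, KO floating and WT floating. All cells came from the ganglionic eminence of mouse embryos at stage E14.5, 1 brain per sample, and RNA was taken from the fourth passage. Per the labels every sample was cultured for 7 days on low-attachment plates with EGF, bFGF, heparin and B-27, a supplement sold with and without vitamin A; which form was used, how the KO allele was made and how the adherent culture differed are not given in the sources used here. No adherent wild-type culture is among the samples, and the p-values below measure the spread between these samples. Total RNA is a mixture, so fewer cells of a type and less RNA per cell cannot be told apart.

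The Cbx3 signal went against the labels of 2 arrays. Levels are given throughout as relative log2 signal, the log2 of the processed signal minus the array's 75th percentile. Cbx3 had -2.03 and 5.91 on KO adherent 1 and 2, then -1.86, -2.76 and -1.75 on KO floating 1, 2 and 3, and 5.83, -2.17 and 5.95 on WT floating 1, 2 and 3. The array labelled KO adherent 2 thus had a Cbx3 level like that of WT floating 1 and 3, and the array labelled WT floating 2 a level like that of the KO arrays. Labels were kept, and each comparison is given with and without these 2 arrays. The 75th percentile of the processed signal lay between 616 and 865, and 44.5% to 55.4% of the non-control spots were well above background. All 6 neural stem and progenitor markers examined were above background on all 8 arrays, among them Nes, Sox2 and Fabp7. Of the 6 markers of the ganglionic eminence, Gsx2 and Nkx2-1 were above background on no array, and 2 of the 6, among them Olig2, on all 8.

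Of the 9 genes, 7 were measured well enough to be compared. Only probes that exceeded background throughout at least 1 of the groups were compared. Aldh1a2, the main source of retinoic acid in the trunk of the embryo, was above background on 0 of 8 arrays, with relative log2 signals between -6.90 and -5.50 on the 7 arrays that gave a value. Crabp1 was above background on 0 of 8 arrays as well, between -6.45 and -5.07. For both, the level could not be told from the signal.

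Aldh1a1, a retinaldehyde dehydrogenase, was high on the arrays with little Cbx3 signal. It had 2.56 and 0.05 on KO adherent 1 and 2, and 2.75, 3.48 and 2.83 on KO floating 1, 2 and 3. On WT floating 1, 2 and 3 it had -0.40, 3.35 and -0.97. WT floating 2 lay among the KO floating arrays, so the groups overlapped as labelled, and KO adherent 2 lay 0.74 above the mean of WT floating 1 and 3. Aldh1a1 averaged 3.02 ± 0.40 in KO floating and 0.66 ± 2.35 in WT floating neurospheres (SD, n = 3 each), a log2 difference of 2.37 (SE 1.16), or 5.16-fold. Without the 2 arrays the WT mean was -0.69 ± 0.40 (SD, n = 2), the groups did not overlap, and the difference was 3.71 (SE 0.32), or 13.1-fold.

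RefSeq lists 2 start sites for Aldh1a1 in the GRCm38.p6 assembly. The window of the start nearer to the gene's 3′ end is shown, from 250 bases before to 50 bases after it (chr19:20601718-20602017, plus strand), since Aldh1a1 carries the largest rise among the 9 genes. Capitals mark the core motif of retinoic acid receptors, defined below at Rarb, which here reads on the minus strand.
Aldh1a1 promoter: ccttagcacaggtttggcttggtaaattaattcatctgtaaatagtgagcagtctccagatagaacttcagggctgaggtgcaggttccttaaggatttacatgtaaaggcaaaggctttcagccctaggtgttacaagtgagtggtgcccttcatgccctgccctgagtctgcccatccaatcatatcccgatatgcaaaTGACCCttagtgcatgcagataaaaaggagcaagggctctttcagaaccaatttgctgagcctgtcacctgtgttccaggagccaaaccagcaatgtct

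Aldh1a3, which catalyses the same reaction, had the opposite pattern and the widest range of the 9 genes, 6.53 on the log2 scale. It had -4.21 and -1.28 on KO adherent 1 and 2, and -5.61, -6.30 and -5.93 on KO floating 1, 2 and 3. On WT floating 1, 2 and 3 it had 0.23, -4.19 and -0.81. Its signal exceeded background on the 3 WT floating and both KO adherent arrays but on 0 of 3 KO floating arrays. WT floating 2 and KO adherent 1 lay close together, just above background. The lowest signal above background on KO floating 3 was -4.14, so these 2 arrays cannot be ordered against it, and the other 3 arrays stood above every KO floating array. The probe averaged -5.95 ± 0.34 in KO floating and -1.59 ± 2.31 in WT floating neurospheres (SD, n = 3 each). The lowest signal above background averaged -4.54 on the KO floating arrays. Against this floor Aldh1a3 was 7.73-fold lower in KO floating neurospheres, and 19.0-fold lower without the 2 arrays. The floor is the lowest of any probe above background, not a detection limit of this probe, so these folds are no strict bounds. With normexp background correction, which raises dim signals, the measured difference was -2.11, against -4.36 with the processed signal.

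Aldh1a7 is the mouse gene most like Aldh1a1 and lies beside it on chromosome 19. Its probe followed that of Aldh1a1 only in part. It had -2.42 and -2.23 on the KO adherent arrays, between -1.91 and -1.46 on the KO floating arrays, and -1.96, -1.58 and -2.79 on WT floating 1, 2 and 3. KO adherent 1, where Aldh1a1 was high, was thus low for Aldh1a7. The KO minus WT floating difference was 0.35 (SE 0.32). Without the 2 arrays it was 0.61 (SE 0.32), and the floating groups did not overlap, as for 51.1% of all features. The range of Aldh1a7 over the 8 arrays was 1.33, against 4.46 for Aldh1a1.

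**Figure D1:**
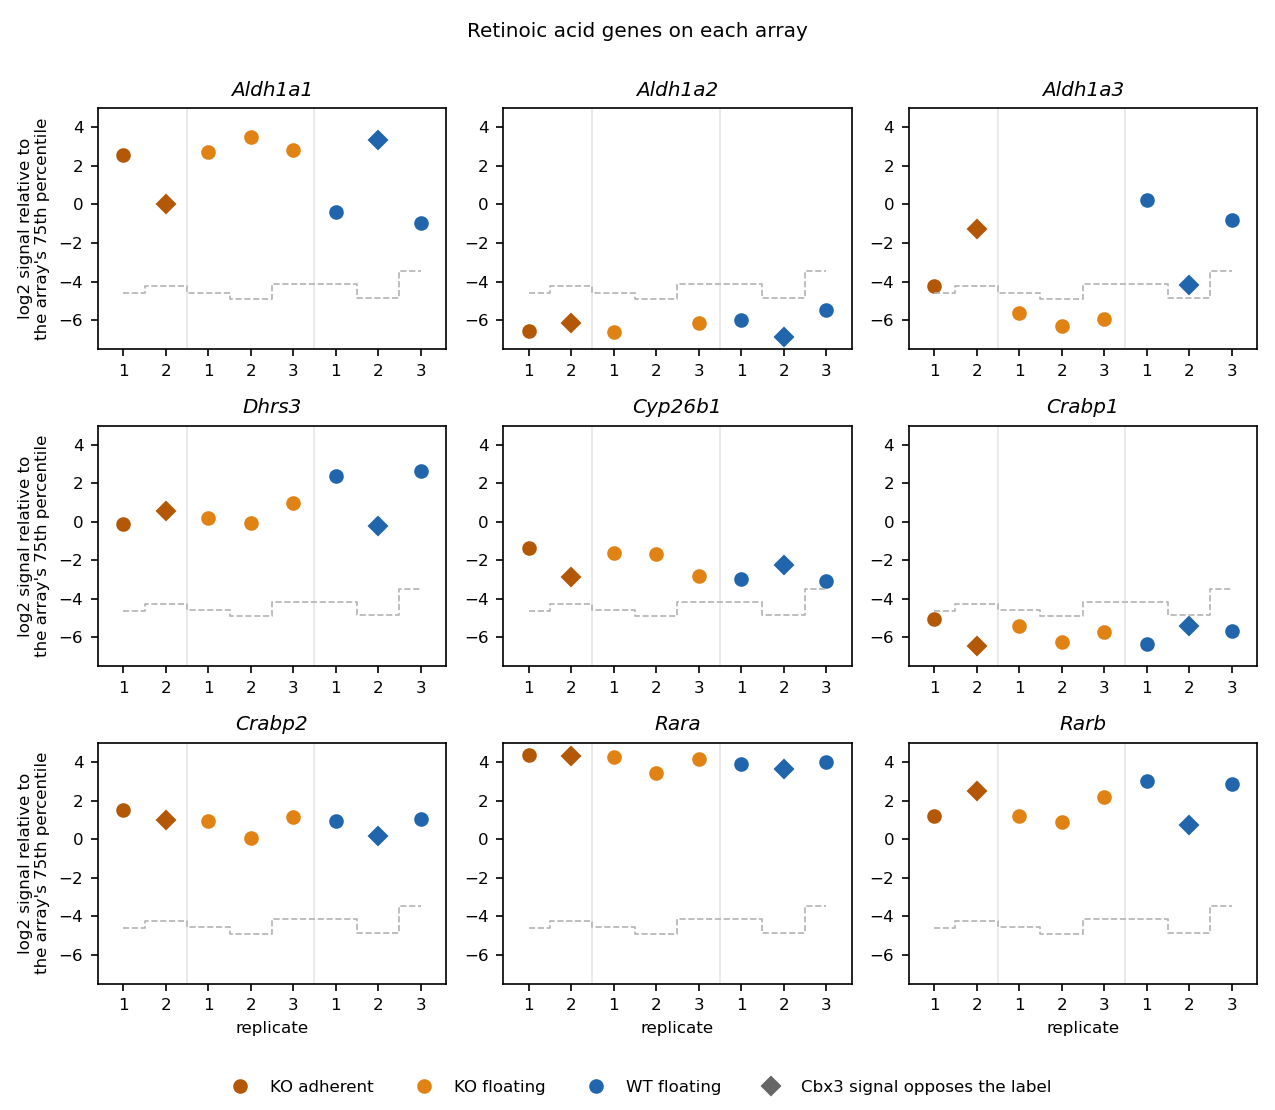
Relative log2 signal (log2 of processed signal minus the array's 75th percentile) of the 9 retinoic acid genes on each array, by group and replicate. Diamonds mark the arrays labelled KO adherent 2 and WT floating 2, whose Cbx3 signal opposes the label, and the dashed line is the lowest signal well above background on each array. Aldh1a1 and Aldh1a3 mirror each other, and Aldh1a2 and Crabp1 lie below the line throughout; Aldh1a2 has no value on KO floating 2.

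Of the enzymes that limit retinoic acid, Dhrs3 and Cyp26b1 were measured, and the floating groups overlapped for both as labelled. Dhrs3 reduces retinaldehyde back to retinol and is itself a known retinoic acid target. It had -0.10 and 0.56 on KO adherent 1 and 2, 0.22, -0.05 and 0.96 on KO floating 1, 2 and 3, and 2.39, -0.20 and 2.62 on WT floating 1, 2 and 3. WT floating 1 and 3 stood above all other arrays, and KO adherent 2, despite its high Cbx3 signal, stayed 1.95 below their mean. Dhrs3 averaged 0.38 ± 0.52 in KO floating and 1.60 ± 1.57 in WT floating neurospheres (SD, n = 3 each), a difference of -1.23 (SE 0.73). Without the 2 arrays it was -2.13 (SE 0.34), with no overlap between the floating groups.

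Cyp26b1, a cytochrome P450 that degrades retinoic acid, was dim and above background on 7 of 8 arrays, all but WT floating 3. It had -1.37 and -2.87 on KO adherent 1 and 2, -1.64, -1.65 and -2.82 on KO floating 1, 2 and 3, and -2.98, -2.22 and -3.08 on WT floating 1, 2 and 3. KO floating 3 lay with WT floating 1 and 3 rather than with the other KO floating arrays. Cyp26b1 averaged -2.04 ± 0.68 in KO floating and -2.76 ± 0.47 in WT floating neurospheres (SD, n = 3 each), a difference of 0.72 (SE 0.50), and 0.99 (SE 0.42) without the 2 arrays.

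Crabp2, which carries retinoic acid to its nuclear receptors, differed between the floating genotypes by less than the error of the difference. It averaged 0.73 ± 0.57 in KO floating and 0.71 ± 0.49 in WT floating neurospheres (SD, n = 3 each), a difference of 0.02 (SE 0.37), and -0.26 (SE 0.36) without the 2 arrays. Its lowest levels were 0.08 on KO floating 2 and 0.15 on WT floating 2, and the other 6 arrays lay between 0.92 and 1.5. Within each floating group the array numbered 2 was thus lower than the others, by more than the genotypes differed.

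The receptor Rara had its lowest levels on the same arrays. Rara had 4.36 and 4.33 on KO adherent 1 and 2, 4.26, 3.45 and 4.15 on KO floating 1, 2 and 3, and 3.92, 3.63 and 3.99 on WT floating 1, 2 and 3. Rara averaged 3.96 ± 0.44 in KO floating and 3.84 ± 0.19 in WT floating neurospheres (SD, n = 3 each), a difference of 0.11 (SE 0.25). A second Rara probe had -0.95 on KO floating 2 and -0.67 on WT floating 2, against 0.76 to 1.37 on the other arrays, so it put the same 2 arrays lowest with a wider gap. After these values were seen, the genes whose lowest 2 of 8 arrays were KO floating 2 and WT floating 2 were counted: 3 of the 7 measured genes (Crabp2, Rara and Rarb), where 27.0% of all 22647 features showed this. For Rarb this held for 1 of its 2 probes, since the second had its lowest signals on KO adherent 1 at -2.14 and WT floating 2 at -2.06.

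Rarb is a retinoic acid receptor and a classic retinoic acid target through its own promoter. It had 1.18 and 2.50 on KO adherent 1 and 2, 1.18, 0.88 and 2.17 on KO floating 1, 2 and 3, and 3.03, 0.73 and 2.85 on WT floating 1, 2 and 3. KO floating 3 stood above the other KO floating arrays and KO adherent 2 came close to WT floating 1 and 3. Rarb averaged 1.41 ± 0.67 in KO floating and 2.20 ± 1.28 in WT floating neurospheres (SD, n = 3 each), a difference of -0.79 (SE 0.69), and -1.53 (SE 0.42) without the 2 arrays. A second Rarb probe gave means of -1.62 ± 0.57 in KO and -0.74 ± 1.15 in WT, and its difference without the 2 arrays was -1.55. Both probes thus placed Rarb lower on KO floating arrays than on WT floating 1 and 3.

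The promoter of Rarb is shown because it holds the textbook retinoic acid response element, against which the other genes can be read. The window runs from 250 bases before to 50 bases after the RefSeq start (GRCm38.p6, chr14:16575427-16575726, minus strand), and capitals mark the receptor's core motif on either strand. The motif was searched as AGGTCA and as 3 variants of it: the first is AGTTCA, another one GGGTCA, and the last one GGTTCA.
Rarb promoter: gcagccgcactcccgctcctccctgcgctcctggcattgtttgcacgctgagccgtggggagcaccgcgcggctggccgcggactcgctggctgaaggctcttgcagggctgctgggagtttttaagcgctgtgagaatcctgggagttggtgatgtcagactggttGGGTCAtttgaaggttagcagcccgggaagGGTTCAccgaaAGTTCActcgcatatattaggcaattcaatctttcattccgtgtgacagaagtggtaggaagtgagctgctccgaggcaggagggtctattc

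In it, GGTTCA is followed after 5 bases by a second core motif, and this pair lies from -53 to -37 relative to the start. RefSeq windows were found for 7 of the 9 genes, 13 windows in all, and this was the 1 window among them with a direct repeat of the motif spaced by 1, 2 or 5 bases. Of all 32851 windows of 300 bases, 0.0974% held a repeat spaced by 5 and 0.588% a repeat of any of these spacings, while 43.7% held a single core motif and 4 of the 13 did. A match of letters is no evidence of binding in these cells, and a window without one says nothing of more distant sites.

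In the genotype comparison 0 of the 7 measured genes passed limma at an adjusted p of 0.05 as labelled, where 0.00442% of all features did (1 of 22647, Gm14207, a predicted gene named here after its value was seen). As labelled, the measured values of the floating groups did not overlap for 1 of the 7 genes, Aldh1a3, whose KO values all lay below background, where 8.40% of all features did not (3.82% higher and 4.59% lower). Without the 2 arrays they did not overlap for 5 of the 7, Aldh1a1 and Cyp26b1 higher and Aldh1a3, Dhrs3 and Rarb lower in KO, where 51.1% of all 25962 features did not (24.0% higher and 27.2% lower). In that fit 2 of the 7 passed limma, where 0.177% of all features did. These were Aldh1a1 and Aldh1a3, the genes by which the set was chosen with the Cbx3 level, so their passing follows from the choice and is no evidence.

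**Figure D2:**
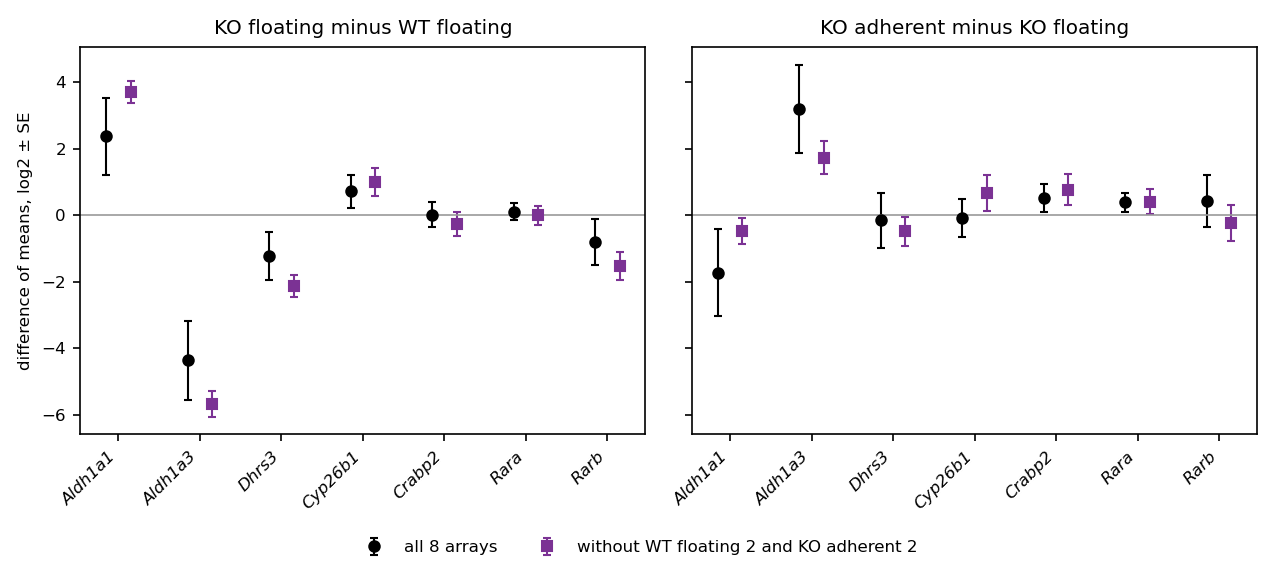
Difference of group means in relative log2 signal, with the standard error of the limma fit, for the 7 measured genes in KO floating minus WT floating (left) and KO adherent minus KO floating (right). Black circles are from all 8 arrays and purple squares from the fit without WT floating 2 and KO adherent 2. Aldh1a1 at 2.37 and Aldh1a3 at -4.36 lie farthest from 0 on the left.

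The 2 arrays in doubt were set against the floating groups gene by gene. WT floating 2 was nearer to the KO floating mean than to the mean of WT floating 1 and 3 for 6 of the 7 genes, and the same held for 79.7% of all features. The exception was Rara, whose means in these groups were 3.96 and 3.95. KO adherent 2 was nearer to the mean of WT floating 1 and 3 than to the KO floating mean for 5 of the 7 genes, and for 71.3% of all features. The exceptions were Dhrs3 and Rara. These shares do not set the retinoic acid genes apart from the rest of the array.

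Culture was compared within the KO cells. The genes were chosen with the Cbx3 level of all 8 arrays, KO adherent 2 among them, so the values of Aldh1a1 and Aldh1a3 are a description here too. Of the 7 measured genes, 0 passed limma at an adjusted p of 0.05, as did 0 of 22647 features (0%), of which 253 had an unadjusted p under 0.05. Aldh1a3 averaged -2.75 ± 2.07 (SD, n = 2) in KO adherent cells. It lay below background on the KO floating arrays, at -5.95 ± 0.34 (SD, n = 3). Against the lowest signal above background, averaged over the KO floating arrays, it was 3.46-fold higher in KO adherent cells, which is no strict bound. With KO adherent 1 alone it was 1.25-fold higher than the same floor. That array, at -4.21, cannot be ordered against KO floating 3, where the lowest signal above background was -4.14.

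Aldh1a1 was lower on both adherent arrays than on any KO floating array. It averaged 1.31 ± 1.77 (SD, n = 2) in KO adherent and 3.02 ± 0.40 (SD, n = 3) in KO floating cells, a difference of -1.72 (SE 1.30). Most of this came from KO adherent 2: without the 2 arrays, where KO adherent 1 alone remained and was taken to vary like the other groups, the difference was -0.47 (SE 0.40). Rara was higher on both adherent arrays, by 0.39 (SE 0.28, limma adjusted p = 0.990, and 0.726 to 1.0 over the other settings). Crabp2 differed by 0.52 (SE 0.41, limma adjusted p = 0.990, and 0.815 to 1.0 over the other settings), with overlap. The differences of Dhrs3 at -0.15 (SE 0.82), Cyp26b1 at -0.08 (SE 0.56) and Rarb at 0.43 (SE 0.78) were smaller than their errors. The measured values of the adherent and floating groups did not overlap for 3 of the 7 genes, where 12.8% of all features did not (7.98% higher and 4.80% lower in KO adherent). With KO adherent 1 alone this held for 6 of the 7, where it held for 42.9% of all features (25.8% higher and 17.2% lower).

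The genes whose profile over the 8 arrays came closest to those of the aldehyde dehydrogenases were found by the root mean square distance between values centred on each gene's mean, among 12741 named genes above background on at least 2 arrays. For Aldh1a1 these were the protocadherin Pcdha9 at 0.33, the pseudogene Znf41-ps at 0.34 and the zinc transporter Slc39a12 at 0.36, with a median distance of 1.77 over all candidates. Slc39a12, above background on all 8 arrays, had 2.22 and -0.07 on KO adherent 1 and 2, between 2.34 and 2.52 on KO floating, and -0.44, 2.35 and -1.93 on WT floating 1, 2 and 3. Each of these profiles, like that of Aldh1a1, was high on the KO floating arrays, KO adherent 1 and WT floating 2. This follows from how they were picked, as nearest to Aldh1a1 over the same 8 arrays. Pcdha9 was above background on 5 arrays and Znf41-ps on 7. For Aldh1a3 the nearest were the membrane protein gene Mctp1 at 0.96, the actin-bundling villin gene Vil1 at 0.97 and the myelin gene Opalin at 0.98, against a median of 2.35, and these were above background on 5, 4 and 4 arrays.

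Beyond the 9 genes, 52 genes of the retinoid pathway were examined in 5 lists: synthesis from retinol, uptake and carriers, breakdown, receptors with their coregulators, and response genes. Of these, 36 were measured, and 0 passed limma in either comparison as labelled (0 at an unadjusted p under 0.05 in either). Their median difference in KO against WT floating was 0.01, against -0.03 over all features, and 18 of 36 differences were positive. Without the 2 arrays 0 of 36 passed and 11 had an unadjusted p under 0.05, as did 6563 of all 25962 features, with a median of 0.00 against -0.04. By list, the median difference was 0.11 for synthesis (10 genes measured), -0.33 for uptake and carriers (7 genes), -0.04 for receptors and coregulators (11 genes) and 0.15 for response genes (8 genes). In KO adherent against KO floating cells 20 of the 36 differences were positive, with a median of 0.05 against 0.06 over all features. Medians thus lay near that of all features, apart from the carriers.

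Single genes of these lists are given by their difference between KO and WT floating neurospheres. The brightest retinol dehydrogenase genes, Rdh5, Rdh11 and Rdh12, differed by 0.24, -0.57 and -0.21. The brightest carriers and storage enzymes were the fatty acid binding protein gene Fabp5 at 0.02, Rbp3 at -0.33 and Dgat1 at 0.21. Of the brightest receptor and coregulator genes, Rxrb differed by -0.10 and the coactivator gene Ncoa1 by 0.33. Of the response genes, Nr2f1 differed by 0.11 and Meis1 by 0.66 (limma adjusted p = 0.864 and 0.813), while Hoxb1, Cdx1 and Stra8 were above background on no array. The retinol receptor Stra6, the esterifying enzyme Lrat and both other Cyp26 genes, Cyp26a1 and Cyp26c1, were above background on no array. Rxra was named after its values were seen. Its brightest probe had -4.22 on KO floating 2 and -3.27 on WT floating 2, against -1.81 to -0.25 on the other arrays. This was the same pair of low arrays as for Rara and Crabp2. That probe exceeded background on 7 arrays, and its KO minus WT floating difference was -0.90 (SE 1.04). With only probes above background on every array kept, another Rxra probe was used, with a difference of 0.31 (SE 0.22). Its values per array are not given here, so the low pair for Rxra rests on the brightest probe alone.

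**Figure D3:**
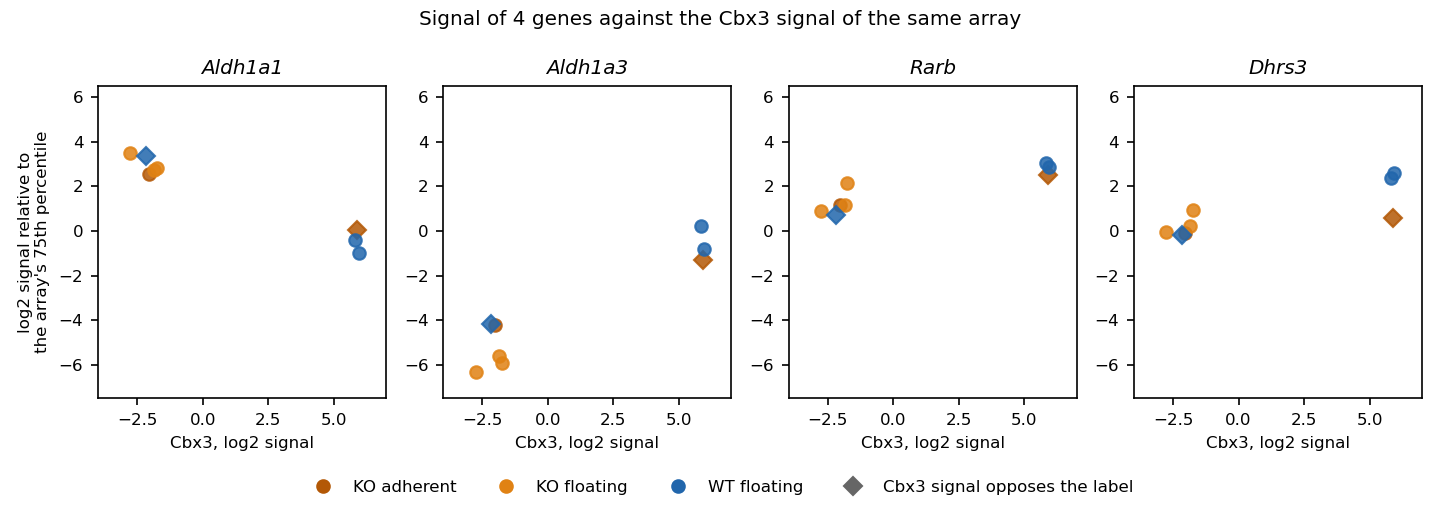
Relative log2 signal of Aldh1a1, Aldh1a3, Rarb and Dhrs3 (vertical) against that of Cbx3 on the same array (horizontal), 1 point per array. Colours give the labelled group and diamonds the arrays labelled KO adherent 2 and WT floating 2. The 3 arrays with Cbx3 near 5.9 have the lowest Aldh1a1 and the highest Aldh1a3 and Rarb signals. Dhrs3 is high on 2 of them and 0.56 on KO adherent 2. Rarb is drawn by its brighter probe. On its second probe KO floating 3 at -0.96 lay above KO adherent 2 at -1.02.

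Markers of other cell types that a neurosphere culture can hold were examined beside these genes. The summed relative signal of 7 fibroblast and meninges genes was 2.39 and 4.72 on KO adherent 1 and 2, 2.05 to 3.59 on KO floating arrays, and 4.27, 2.54 and 4.95 on WT floating 1, 2 and 3. It was highest on KO adherent 2 and WT floating 1 and 3, the 3 arrays with the highest Aldh1a3 signals, mostly through 1 gene, the transcription factor Foxc1. Pdgfra of the same list was lowest on these arrays, at -3.21, -2.75 and -3.03, against -1.90 to -0.52 on KO floating arrays. Lum was above background on no array and Dcn on 1. The summed signal of 6 ganglionic eminence genes, mostly that of Olig2, was 35.5 and 23.3 on KO adherent 1 and 2, 20.5 to 40.9 on KO floating arrays and 17.0, 41.1 and 17.3 on WT floating 1, 2 and 3. Its order did not follow that of Aldh1a3, since KO floating 3 lay below KO adherent 2, and Dlx1 was highest on KO adherent 2 at -2.08. The choroid plexus sum, mostly that of Otx2, was 13.3 and 0.890 on KO adherent 1 and 2, 8.15 to 20.1 on KO floating arrays and 32.8, 10.2 and 17.1 on WT floating 1, 2 and 3. The part of these cell types in the differences was not tested. Of the microglia markers Aif1, Cx3cr1 and Ptprc were above background on no array, nor were the endothelial markers Cdh5 and Cldn5 or the choroid plexus marker Ttr. Of the same lists, Csf1r, Kdr, Pecam1 and Otx2 were above background on all 8 arrays and Folr1 on 6.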

How the data were processed

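Each of the 8 samples was hybridised to its own Agilent array (Cy3 only, all on 1 slide). Per the file headers the deposited intensity values come from Agilent Feature Extraction 11.0.1.1, while 9.1.3.1 is the version in the submitters' processing notes. The authors' deposited table holds the same linear intensity. The members, lists and tests were chosen with earlier results of these data known. Log2 processed signals were scaled to each array's 75th percentile, flagged spots left out, spots of a probe averaged and, per gene, the probe with the highest mean kept. Of 55681 probes, 27235 were named through unversioned accessions in a RefSeq table of GRCm38.p6. limma 3.58.1 in R 4.3.3 (lmFit, eBayes, two-sided, Benjamini-Hochberg over 22647 features) was fitted to the 3 labelled groups. On simulated data it recovered 54.0% of 4-fold and 82.0% of 8-fold changes in KO against WT floating, and 62.0% and 72.0% in KO adherent against KO floating, each over 22647 features. Where the dimmer group was above background on no array, a fold is the brighter mean over a floor. On each array the floor is the lowest signal above background or, if higher, that of the probe. It is not a detection limit of each probe. On WT floating 3 Cyp26b1 at -3.08 was not above background, while the lowest signal above background was -3.47. The number of arrays limits the precision. Named were all 9 genes, Cbx3, Aldh1a7, the brightest 3 of each list, the 3 nearest profiles and, where stated, genes chosen after seeing values. Some genes this rule names are not reported here. Deviations of same-numbered floating arrays from their group means correlated at 0.103, 0.590 and 0.335 across features, so the replicate number was tried as a block; the labels do not say that a number marks a shared litter or batch. Other settings were quantile and median scaling, normexp with an offset of 50 (on the median signal, since the files hold no mean), the authors' table, other filters, every probe, only the groups compared, trend with robust eBayes, the slide row, and leaving out arrays.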

Additional observations from a re-analysis of the deposited data

How the results depend on the processing

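The count for KO against WT floating, 1 feature, became 0 with the replicate block, the slide row, trend with robust eBayes, the 2 groups fitted alone, normexp, and either filter (none, or background exceeded on all 8 arrays), was 46 without the 2 arrays that oppose their label, and ranged from 0 to 3 when single arrays were dropped (3 without WT floating 3). The number of retinoic acid genes among them, 0, became 2 without the 2 arrays, Aldh1a1 and Aldh1a3 by which the genes were chosen, and stayed 0 when single arrays were dropped; with the replicate block it was 0. The culture comparison, with 0 calls, had 7 under quantile normalization, 0 with the replicate block, and 0 to 6 when single arrays were dropped, the 6 when WT floating 2 was and 1 when KO adherent 1 was. Over all settings run, the KO minus WT floating differences kept their sign for Aldh1a1 (1.55 to 3.71), Aldh1a3 (-5.66 to -2.11), Dhrs3 (-2.13 to -0.72), Cyp26b1 (0.49 to 1.11) and Rarb (-1.53 to -0.38), while Crabp2 (-0.26 to 0.34) and Rara (-0.04 to 0.36) turned. In KO adherent against KO floating, signs turned for Dhrs3 (0.25 with the replicate block, 0.14 without KO floating 3, 0.18 without KO adherent 1; range -0.48 to 0.18 over single arrays dropped), Cyp26b1 (0.47 with the slide row, 0.67 without the 2 arrays or without KO adherent 2 alone, 0.12 without KO floating 1, 0.11 without KO floating 2; range -0.83 to 0.67) and Rarb (-0.27 with the slide row, -0.23 without the 2 arrays or without KO adherent 2 alone; range -0.23 to 1.09). The cause of these changes was not tested. The replicate block changed no other call. Aldh1a3 on KO floating arrays, and Aldh1a2 and Crabp1 on all, lay below background, where the level could not be told from the signal.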
